A study of Mus musculus with 3 samples.

Results

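Broad domains of H3K27me3, each 80 kb wide or more, were described in F123 mouse embryonic stem cells (mESCs). H3K27me3 is the histone modification that Polycomb complexes place. A domain was any region in the deposited H3K27me3 list whose width was at least 80 kb, and 594 of 17342 regions (3.43%) passed. The members were thus selected on the measured width from the H3K27me3 library, so the number and size of the domains are a description and support nothing. The domains held 86.1 Mb, which was 36.4% of all length in the H3K27me3 list and 3.16% of the chromosomes. They are set beside 3930 H3K27me3 regions of 10 to 80 kb and 12818 regions under 10 kb.

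Polycomb complexes silence genes of development that a cell does not use, and their mark can spread from CpG-rich promoters over whole gene clusters. RNA polymerase II is also found at Polycomb targets in mESCs. Phosphate on serine 5 of its C-terminal repeats (Pol2-S5p) marks polymerase at the start of transcription, including poised polymerase at Polycomb-repressed genes. Phosphate on serine 7 (Pol2-S7p) is found on polymerase at genes that are productively transcribed.

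The series held chromatin immunoprecipitation sequencing (ChIP-seq) of H3K27me3, Pol2-S5p and Pol2-S7p, with 1 library for each of the 3 marks. F123 is a male hybrid line from a cross of S129/Jae and Cast mice, grown on inactivated fibroblast feeders with LIF and moved to gelatin without feeders for at least 2 passages before harvest, without any further treatment. The antibodies were a mouse monoclonal for Pol2-S5p (clone CTD4H8), a rat monoclonal for Pol2-S7p and a rabbit antibody for H3K27me3. Regions from both parental genomes stand together in each list, there were no replicates, and no difference here was tested against replicate error. Shares carry 95% Clopper-Pearson bounds, called intervals here, which are exact and reflect counting error only. The label of the cells was read against marker promoters. Of 8 embryonic stem cell markers, 6 were Active (both polymerase forms and no H3K27me3 in the 2 kb around the start), and 0 of 10 fibroblast markers were. Over all 17639 counted coding promoters, 31.6% were Active. The other 2 embryonic stem cell markers, Sox2 and Klf4, carried all 3 marks, as did the fibroblast marker Vim. Of the other fibroblast markers, 3 carried H3K27me3 with Pol2-S5p alone, 2 carried H3K27me3 alone and 4 carried no mark. Among 7 extraembryonic markers, 3 carried all 3 marks, 3 carried H3K27me3 with Pol2-S5p alone and 1 carried no mark.

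Promoters inside the domains differed in their CpG content, and the sequences of 5 promoters in 2 of the widest domains are printed to show that range. Each covers 300 bases, from 250 before to 50 after the start chosen from GENCODE genes. The bases are from the RefSeq sequence of GRCm38, the assembly also called mm10. Each reads 5′ to 3′ along the gene, with CG dinucleotides in capitals. Igsf21 encodes an immunoglobulin-family adhesion protein of synapses, and Pax7 encodes a transcription factor of muscle and neural crest progenitors. Both carried H3K27me3 and Pol2-S5p without Pol2-S7p, the PRC-repressed (PRCr) state. Aldh4a1 encodes a mitochondrial enzyme of proline breakdown and carried all 3 marks, the Polycomb-Active (PRCa) state. Cyth4, an exchange factor for small GTPases in blood cells, and Il2rb, the beta chain of the interleukin-2 receptor, carried H3K27me3 only.
Igsf21 (PRCr, chr4:140246735-140247034, minus strand): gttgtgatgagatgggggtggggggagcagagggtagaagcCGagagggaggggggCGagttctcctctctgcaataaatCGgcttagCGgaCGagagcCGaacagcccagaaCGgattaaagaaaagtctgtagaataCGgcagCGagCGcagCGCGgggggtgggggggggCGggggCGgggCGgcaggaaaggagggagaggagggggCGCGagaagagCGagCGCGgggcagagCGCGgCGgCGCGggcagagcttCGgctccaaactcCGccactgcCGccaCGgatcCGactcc
Pax7 (PRCr, chr4:139832958-139833257, minus strand): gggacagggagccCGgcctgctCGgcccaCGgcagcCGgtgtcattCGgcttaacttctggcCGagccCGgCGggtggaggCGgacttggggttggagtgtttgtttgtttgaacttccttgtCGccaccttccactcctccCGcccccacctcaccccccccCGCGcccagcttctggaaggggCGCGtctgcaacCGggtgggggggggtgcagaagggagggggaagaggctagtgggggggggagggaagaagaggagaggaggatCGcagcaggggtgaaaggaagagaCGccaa
Aldh4a1 (PRCa, chr4:139622616-139622915, plus strand): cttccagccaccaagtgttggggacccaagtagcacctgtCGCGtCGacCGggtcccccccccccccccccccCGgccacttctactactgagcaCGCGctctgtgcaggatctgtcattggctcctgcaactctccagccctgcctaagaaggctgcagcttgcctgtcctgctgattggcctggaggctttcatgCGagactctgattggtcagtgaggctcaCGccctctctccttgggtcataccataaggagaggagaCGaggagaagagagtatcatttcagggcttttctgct
Cyth4 (H3K27me3 only, chr15:78596797-78597096, plus strand): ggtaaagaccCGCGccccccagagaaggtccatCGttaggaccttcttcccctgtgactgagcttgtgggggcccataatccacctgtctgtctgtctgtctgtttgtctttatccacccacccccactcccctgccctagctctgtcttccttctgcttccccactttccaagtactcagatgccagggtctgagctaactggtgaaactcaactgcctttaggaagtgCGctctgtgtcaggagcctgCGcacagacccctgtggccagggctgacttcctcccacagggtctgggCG
Il2rb (H3K27me3 only, chr15:78495222-78495521, minus strand): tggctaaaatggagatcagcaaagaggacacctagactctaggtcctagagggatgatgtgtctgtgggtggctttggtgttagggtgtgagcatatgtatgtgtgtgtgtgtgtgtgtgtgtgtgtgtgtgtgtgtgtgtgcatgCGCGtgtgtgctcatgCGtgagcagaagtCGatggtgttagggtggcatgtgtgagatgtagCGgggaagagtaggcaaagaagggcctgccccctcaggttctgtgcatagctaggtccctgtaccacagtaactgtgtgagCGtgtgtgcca

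These sequences held 30 CpGs at Igsf21, 18 at Pax7, 10 at Aldh4a1, 6 at Cyth4 and 6 at Il2rb. Over all counted coding promoters in domains, the median was 11 CpGs in the 300 bases for 247 PRCr promoters, 15 for 689 PRCa promoters and 4 for 243 promoters with H3K27me3 only. At least 10 CpGs were present in 53.0% of PRCr, 64.6% of PRCa and 13.6% of H3K27me3-only promoters of the domains. Promoters in the same 3 states outside domains had medians of 12, 20 and 6 CpGs, and the shares with at least 10 were 59.4%, 74.3% and 27.7%. In and out of domains, the promoters without polymerase thus had the lowest median of the 3 states.

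Widths ran from 80.0 to 775.8 kb with a median of 115.5 kb (quartiles 95.1 and 166.35 kb). The distribution was continuous across the 80 kb limit, with 186 domains (31.3%) below 100 kb, 99 of 200 kb or more and 26 of 300 kb or more. Just inside the limit stood a region of 80.0 kb on chromosome 12 with Pgf, a placental growth factor gene in the PRCr state, and Rps6kl1 in the PRCa state, and a region of 80.0 kb on chromosome 5 in which no coding gene started. Pol2-S5p covered 55.25% of the region on chromosome 12 and 17.8% of that on chromosome 5. Just outside it stood a region of 79.8 kb on chromosome 1 at Gbx2, a homeobox gene of the hindbrain in the PRCa state, with 58.6% under Pol2-S5p, and a region of 79.6 kb on chromosome 16 at Heg1, a PRCr gene of vessel growth, with 81.7% under Pol2-S5p. The score of the peak finder, whose unit is not stated, had a median of 7.00 in domains, 7.48 in regions of 10 to 80 kb and 8.71 in regions under 10 kb. The nearest other H3K27me3 region was a median of 11.1 kb from a domain, and this distance is not given for narrower regions. Another region was within 2 kb of 120 domains, and 95 pairs of domains were direct neighbours with a median gap of 20.2 kb.

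Most domains contained a polymerase region. A Pol2-S5p region touched 577 of 594 domains (97.1%, interval 95.5 to 98.3), against 79.0% of regions of 10 to 80 kb, 51.6% of regions under 10 kb and 59.4% of all H3K27me3 regions. For Pol2-S7p the count was 521 domains (87.7%, interval 84.8 to 90.2), against 62.8% of regions of 10 to 80 kb, 38.7% of those under 10 kb and 45.8% of all. With only polymerase regions scoring above the median of their list, 61.4% of domains were touched by Pol2-S5p and 53.9% by Pol2-S7p. A wider region offers more length to touch, so these shares do not compare the classes at equal length. Per length the classes stood closer to each other, except for Pol2-S7p in the regions under 10 kb. Pol2-S5p covered 36.6% of domain length, 33.8% of the length in regions of 10 to 80 kb and 36.4% in regions under 10 kb. Pol2-S7p covered 18.7% of domain length, 18.8% in regions of 10 to 80 kb and 25.7% in regions under 10 kb. Outside the H3K27me3 list, Pol2-S5p and Pol2-S7p covered 9.91% and 8.61% of the chromosomes. The gap between the polymerase forms was thus wide in H3K27me3 regions of every width class and small over the outside sequence as a whole. It was not small everywhere outside. In the first 1 kb outside domains, Pol2-S5p covered 38.2% and Pol2-S7p 28.3%, while H3K27me3 regions covered 2.26%. With only polymerase regions scoring above the median of their list, Pol2-S5p covered 9.75% and Pol2-S7p 5.72% of domain length.

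Cover varied widely from domain to domain. The median domain had 28.5% of its length under Pol2-S5p (quartiles 8.93 and 57.96%) and 8.94% under Pol2-S7p (quartiles 1.79 and 26.7%). More than 50% of the length was under Pol2-S5p in 182 domains (30.6%) and under Pol2-S7p in 67 (11.3%), while under 10% was covered in 165 and 314 domains. Pol2-S7p covered more length than Pol2-S5p in 56 domains. Both forms touched 518 domains, Pol2-S5p without Pol2-S7p touched 59 (9.93%), Pol2-S7p without Pol2-S5p touched 3, and 14 (2.36%) held neither, where 38.2% of all H3K27me3 regions held neither.

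**Figure D1:**
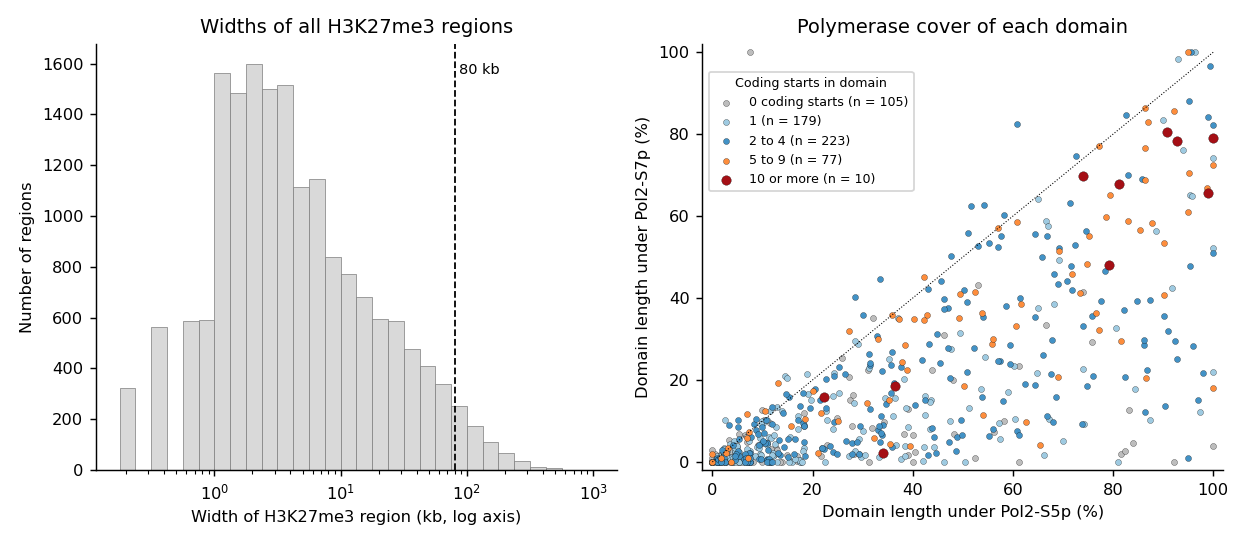
Left, histogram of the widths of all H3K27me3 regions on a log axis in kb, with the 80 kb limit as a dashed line. Right, share of length under Pol2-S5p (x axis, %) and Pol2-S7p (y axis, %) for each of the 594 domains, coloured by the number of coding starts, with a dotted line of equal cover. Most domains lie under the line, 56 lie above it, and the 10 domains with 10 or more coding starts have median cover of 80.1% for Pol2-S5p and 66.8% for Pol2-S7p.

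A total of 1418 protein-coding genes (6.46% of 21938) and 844 long noncoding RNA (lncRNA) genes (6.31% of 13374) started in a domain, in 3.16% of the chromosome length. Of all coding genes, 1117 lay wholly inside a domain. Coding starts were sparser in domains than in narrower regions, with 16.5 per Mb, against 29.6 in regions of 10 to 80 kb and 80.9 in regions under 10 kb. No coding gene started in 105 domains (17.7%), against 44.5% of regions of 10 to 80 kb and 68% of all H3K27me3 regions. A wider region offers more length in which a gene can start, so these shares do not compare the classes at equal length. The share without a coding start was 5.11% in the 176 domains that scored above the median of the H3K27me3 list, and 31.5% of all domains held no whole coding gene. A further 179 domains had 1 coding start, 223 had 2 to 4, 77 had 5 to 9 and 10 had 10 or more. Neither a coding nor an lncRNA gene started in 43 domains, and 57 domains touched no coding gene.

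Polymerase cover was higher in domains with more coding starts. The median cover by Pol2-S5p was 11.6% in domains with 0 coding starts, 17.5% with 1, 34.7% with 2 to 4, 53.9% with 5 to 9 and 80.1% with 10 or more. Pol2-S7p had medians of 1.92%, 4.03%, 13.3%, 32.1% and 66.8% in the same order. The states of the promoters also varied between these classes. PRCr promoters made up 36.8% of counted coding promoters in domains with 1 start, 21.3% with 2 to 4, 15.6% with 5 to 9 and 15.6% with 10 or more. The PRCa share was 50.7%, 56.3%, 57.8% and 77.9%. The share with H3K27me3 only did not follow this order, at 12.5%, 22.2%, 26.0% and 6.56%. CpG-rich sequence also varied with these classes, from a median of 4.33 runs per 100 kb in domains with 0 starts to 18.1 in those with 10 or more, and its part in the polymerase cover was not tested.

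Promoters were sorted by the marks within 2 kb centred on the start. Every promoter in a domain carries H3K27me3 by construction, so only the polymerase marks separate them. Of 1182 coding promoters in domains, 247 (20.9%, interval 18.6 to 23.3) were PRCr, 689 (58.3%, interval 55.4 to 61.1) were PRCa and 243 (20.6%, interval 18.3 to 22.98) had H3K27me3 only, and 3 had H3K27me3 with Pol2-S7p alone. Over all 17639 counted coding promoters these states made up 8.02%, 22.4% and 6.68%, shares that mainly reflect how many promoters have H3K27me3 at all. The closer comparison is with promoters under narrower regions. PRCr made up 22.4% of 2780 promoters under regions of 10 to 80 kb and 20.7% of 2615 under regions shorter than 10 kb. For PRCa the shares were 58.8% and 62.2%, and for H3K27me3 only 17.9% and 16.7%. Intervals of the domains and of the regions of 10 to 80 kb overlapped for all 3 states. Against regions under 10 kb the intervals for H3K27me3 only did not overlap, with 18.3 to 22.98% in domains and 15.3 to 18.2% under those regions. These intervals count promoters that share a domain as independent. In domains scoring above the median of the H3K27me3 list the share was 12.5%, without the same restriction on regions under 10 kb. The shares in domains depended on the lower-scoring polymerase regions. With only polymerase regions scoring above the median of their list, these shares were 17.2% PRCr, 23.04% PRCa and 52.7% H3K27me3 only. The same restriction was not applied to promoters under narrower regions. A region list cannot tell whether the marks of a PRCa promoter lie on the same molecules, in different cells or on different alleles.

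Promoters of lncRNA genes in domains had other shares than coding promoters. Of 675 counted, 20.3% were PRCr, 29.0% PRCa and 49.8% had H3K27me3 only (interval 45.9 to 53.6). The same 3 shares were 19.2%, 30.0% and 49.8% under regions of 10 to 80 kb and 3.87%, 6.15% and 9.7% over all 10923 lncRNA promoters.

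**Figure D2:**
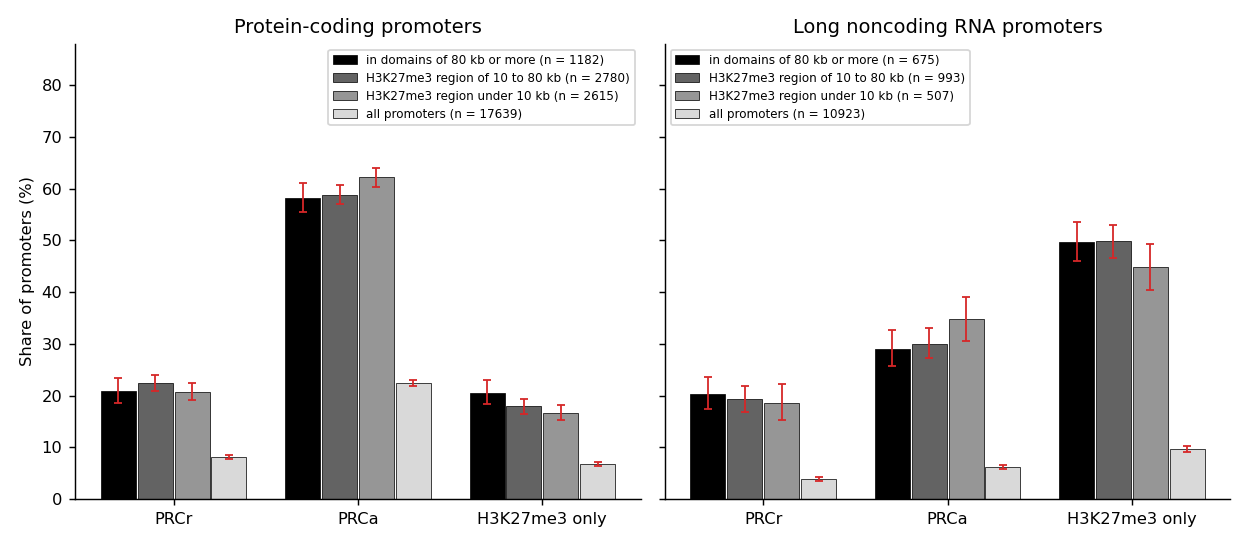
Share of promoters (%) in the PRCr, PRCa and H3K27me3-only states, for protein-coding genes (left) and lncRNA genes (right), with exact 95% intervals as red bars. Black bars are promoters in domains of 80 kb or more, dark and mid grey bars promoters under regions of 10 to 80 kb and under 10 kb, and light bars all counted promoters. Coding promoters in domains reach 58.3% PRCa and lncRNA promoters 49.8% H3K27me3 only, close to the bars for regions of 10 to 80 kb.

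The states mixed within domains. Among 275 domains with 2 or more counted coding promoters, 185 (67.3%) held more than 1 state, 155 with 2 states and 30 with 3. The other domains had 75 that were PRCa throughout, 4 that were PRCr throughout and 11 with H3K27me3 only. In the 179 domains with 1 coding start, the median cover by Pol2-S7p was 1.74% around 66 PRCr genes, 9.48% around 93 PRCa genes and 1.31% around 20 genes with H3K27me3 only. Pol2-S5p cover overlapped more between these groups, with medians of 16.6% around PRCr genes (quartiles 5.48 and 38.3%), 22.7% around PRCa genes (quartiles 7.31 and 57.4%) and 11.1% around genes with H3K27me3 only (quartiles 1.20 and 18.1%). The promoter window is part of the domain and is counted in this cover.

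Polymerase on gene bodies in domains differed by promoter state. The promoter window that sets the state overlaps the start of the gene body, so part of these differences is given by construction. For 247 PRCr genes the median share of the body under Pol2-S5p was 60.03% and under Pol2-S7p 0%, and 62.3% had no Pol2-S7p anywhere in the body. PRCr genes under regions of 10 to 80 kb had a median of 47.2% under Pol2-S5p, and those under regions shorter than 10 kb, whose bodies were mostly outside the mark, 3.12%. PRCa genes in domains had medians of 100% for Pol2-S5p and 97.7% for Pol2-S7p, against 97.9% and 64.3% under regions of 10 to 80 kb. The 243 genes in domains with H3K27me3 only had medians of 0% for both forms, and 87.2% of them had no Pol2-S7p in the body. Gene length differed between these classes, with a median of 18.9 kb for PRCr genes in domains and 52.4 kb for those under regions shorter than 10 kb, and its part was not tested.

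The widest domain (chr4:139515600-140291399, 775.8 kb) held 7 coding starts, and polymerase was spread unevenly along it. A Pol2-S5p region and 3 Pol2-S7p regions lay over Iffo2, Gm21969 and Aldh4a1, all PRCa, at 58.2 to 138.2 kb from its start. Pax7, at 317.4 kb, was PRCr, with a Pol2-S5p region from 312.2 to 318.8 kb and no Pol2-S7p there. Igsf21, at 731.2 kb, was PRCr too, with Pol2-S5p from 727.6 to 731.8 kb. Tas1r2, a sweet taste receptor subunit, was PRCr at the end of the broad Pol2-S5p region. In all, 17 Pol2-S5p and 7 Pol2-S7p regions covered 25.1% and 9.95% of this domain. The next in width (chr4:153163200-153741599, 578.4 kb) held 1 coding gene, Ajap1, an adherens junction protein gene in the PRCr state. It had 8 short Pol2-S5p regions and 2 Pol2-S7p regions, which covered 6.64% and 0.415% of its length.

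The genes of other domains among the 15 widest were of many kinds. Cntn2, Nfasc and Lrrn2, which encode neural cell adhesion proteins, were all PRCa in a domain of 466.4 kb on chromosome 1 with 37.7% under Pol2-S5p and 23.2% under Pol2-S7p. Cdh4, encoding R-cadherin, was PRCa and the only coding start in 427.4 kb on chromosome 2, with 38.2% and 20.2% covered. Sez6l, a neuronal membrane protein gene, was PRCr in 493.0 kb on chromosome 5, where only 7.51% was under Pol2-S5p and 2.23% under Pol2-S7p. Hmx1, which encodes a homeodomain protein of eye and ear, and Dok7, an organizer of the neuromuscular synapse, were PRCr in 503.0 kb on the same chromosome, next to PRCa promoters of Adra2c, Cpz, Hgfac and Lrpap1. Zmiz1, Ppif and Zcchc24 were PRCa in 499.0 kb on chromosome 14, with 64.4% under Pol2-S5p and 35.4% under Pol2-S7p. Grk3, Sgsm1 and Wscd2 were PRCa and the lens crystallin gene Crybb2 had H3K27me3 only in 508.8 kb on chromosome 5, with 60.8% and 58.6% covered. Hes1, the Notch target, was PRCa in 376.4 kb on chromosome 16, with PRCr promoters at Cpn2 and Lrrc15. Adgrd1, an adhesion receptor gene, had H3K27me3 only at its start although 36.5% of its 384.8 kb domain on chromosome 5 was under Pol2-S5p. A domain of 379.6 kb on chromosome 4 had no coding start and 6.85% under Pol2-S5p.

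The third widest domain (chr15:78367400-78878199, 510.8 kb) had 16 coding starts in all 3 states. Il2rb, Cyth4 and Tex33 had H3K27me3 only. Rac2, a GTPase of blood cells, Card10, Lgals2, Sstr3, C1qtnf6 and Elfn2 were PRCr. Kctd17, Mpst, Tst, Tmprss6, Mfng, Cdc42ep1 and Gga1 were PRCa. Pol2-S5p covered 36.4% and Pol2-S7p 18.5% of the domain, and all 3 states were present inside this 1 H3K27me3 region.

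**Figure D3:**
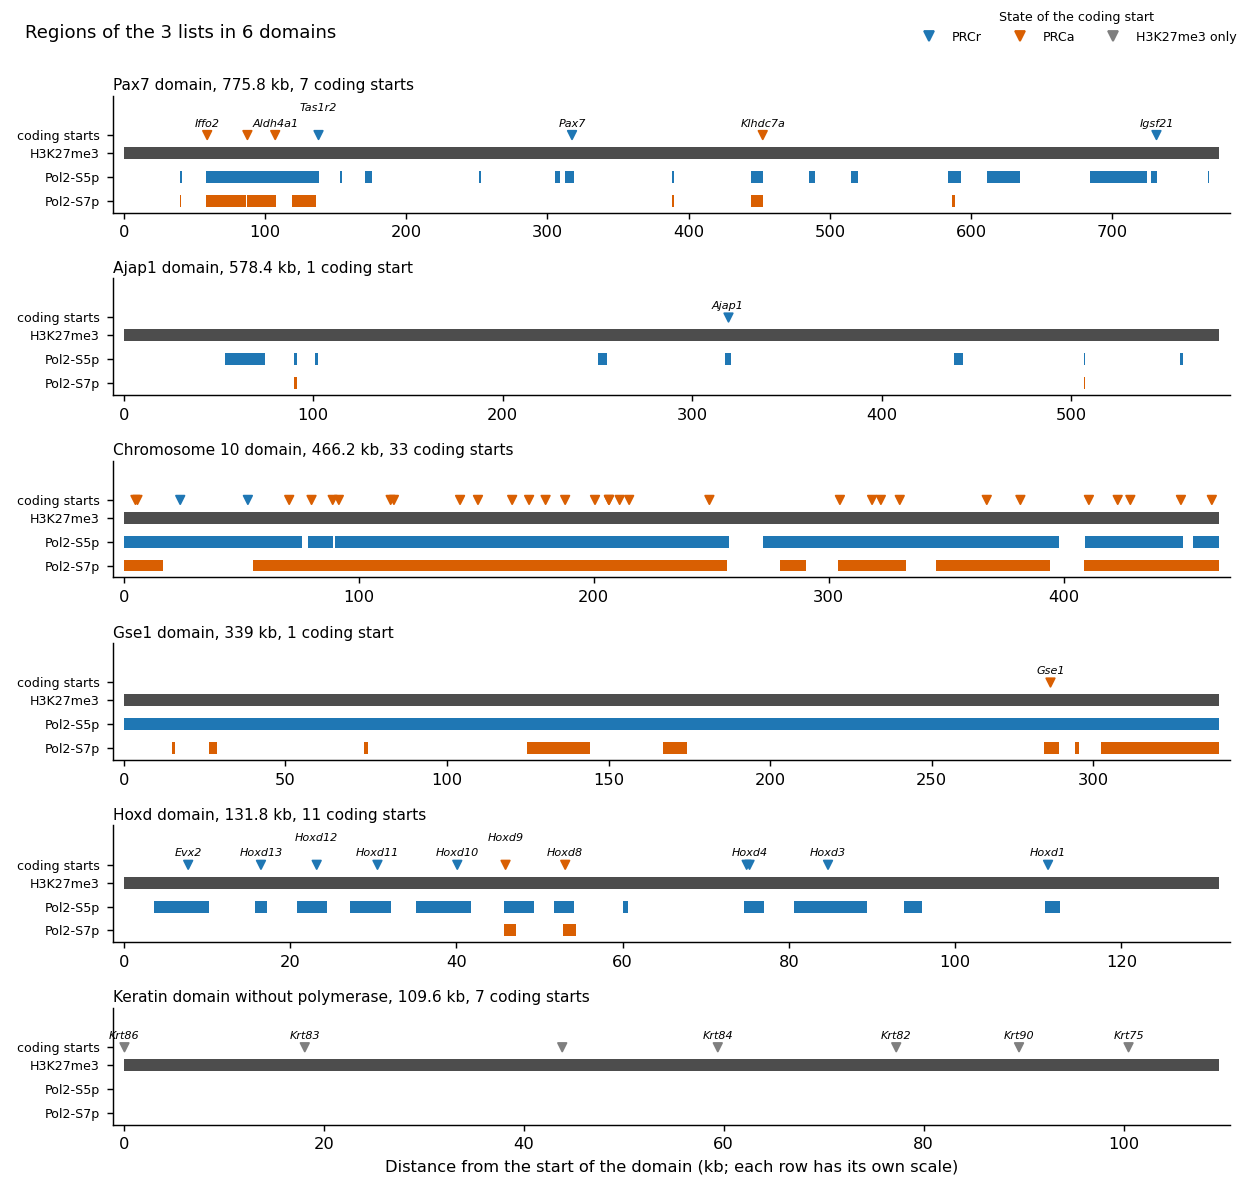
Positions of H3K27me3 (grey), Pol2-S5p (blue) and Pol2-S7p (orange) regions in 6 domains, in kb from the start of each domain on its own scale, with coding starts as triangles coloured by state. The Pax7 domain (775.8 kb) has scattered Pol2-S5p, the Ajap1 domain (578.4 kb) has little polymerase, the chromosome 10 domain (466.2 kb) and the Gse1 domain (339.0 kb) are 92.8% and 100% under Pol2-S5p, the Hoxd domain (131.8 kb) has Pol2-S5p at each gene, and the keratin domain (109.6 kb) has no polymerase.

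Among the 10 domains with 10 or more coding starts, 5 lay on chromosome 10, and Pol2-S5p covered between 22.2% and 100% and Pol2-S7p between 2.28% and 80.5%. The low end of Pol2-S7p was the Hoxd domain. The domain with the most coding starts (chr10:81178000-81644199, 466.2 kb) had 33, of which Atcay, a brain protein gene, and Nmrk2, a kinase of nicotinamide riboside, were PRCr and the others PRCa, including Sirt6, a deacetylase, Fzr1, a cell cycle regulator, and Nfic, a transcription factor. Pol2-S5p covered 92.8% and Pol2-S7p 78.2% of it. A domain of 374.4 kb on the same chromosome had 27 coding starts with 90.8% and 80.5% under the polymerase forms. The genes of general function there, Polr2e, a subunit of RNA polymerase II, Gpx4, Stk11 and Ptbp1, were PRCa, and the neutrophil proteases Elane and Prtn3 were PRCr. In a domain of 278.2 kb with 14 coding starts, the neural homeobox gene Onecut3 was the only PRCr promoter, and Pol2-S5p covered 98.9% and Pol2-S7p 65.6%. The 10 domains held 160 of the 1418 coding starts.

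Broad Pol2-S5p without matching Pol2-S7p was seen in 24 domains, in which Pol2-S5p covered more than 50% and Pol2-S7p under 10% of the length. Cbfa2t3, a corepressor gene of blood development, was PRCr in 135.2 kb (chr8:122626000-122761199) with 80.9% under Pol2-S5p and 0% under Pol2-S7p. Lmx1b, a LIM homeobox gene of limb and brain, was PRCr in 137.4 kb on chromosome 2 with 50.5% under Pol2-S5p and 0% under Pol2-S7p. Fibcd1 and Lamc3, a laminin subunit gene, were PRCr and shared a Pol2-S5p region of 75.4 kb that no Pol2-S7p region touched, the widest of this kind in any domain. The domain of Gse1 (chr8:120201800-120540799, 339.0 kb), a corepressor gene in the PRCa state, lay wholly in 1 Pol2-S5p region while 8 Pol2-S7p regions covered 22.01% of it. Pol2-S7p was above Pol2-S5p in a domain of 102.6 kb on chromosome 14 with the cardiac myosin genes Myh6 and Myh7, at 100% for Pol2-S7p and 94.9% for Pol2-S5p.

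Of the 59 domains touched by Pol2-S5p and not by Pol2-S7p, several had little Pol2-S5p. Alx4, a homeobox gene of limb and skull, and Cd82, a tetraspanin gene, were PRCr in 271.2 kb (chr2:93412000-93683199), and 1.03% of it was under Pol2-S5p. Tox2, an HMG-box gene in the PRCr state, lay in 201.4 kb with 4.57% under Pol2-S5p. The 59 domains together had 8.46 coding starts per Mb, against 17.4 in the domains with both forms and 8.40 in those with neither, and a median of 5 CpG-rich runs against 9 and 2.5.

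The 14 domains with no polymerase region at all were mixed. A domain of 109.6 kb (chr15:101473400-101582999) was a keratin cluster in which Krt75, Krt82, Krt83, Krt84, Krt86 and Krt90, genes of hair and follicle keratins, all had H3K27me3 only. Smoc2, a matrix protein gene, Habp2, a plasma protease gene, Tcp10c and Aqp12 each lay in others. The widest, of 285.4 kb (chr1:85062000-85347399), held A530032D15Rik, C130026I21Rik and Gm10553 and had a score of 18.2 and 43.6% repeat sequence. Repeats took 23.4% of domain length and 36.3% of the sequence outside H3K27me3 regions, and more than 50% in 6 domains. Reads that fit several copies may be lost or shared there, so polymerase cover is uncertain in such domains. The highest score of any domain, 118, belonged to a repeat-rich region of 95.4 kb on chromosome 8 without gene starts.

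Hox genes, which set position along the body axis, had the largest share inside domains of the 36 gene lists described. A start in a domain carries H3K27me3 by construction, and 1182 of 6588 counted coding promoters with this mark started in a domain. The share of all coding genes, set beside each list, does not allow for how many members carry the mark. Of 39 Hox genes, 30 started in 4 domains, where 6.46% of all coding genes started in any domain, and 23 of the 30 were PRCr, 5 PRCa and 2 had H3K27me3 only, where 20.9% of all counted coding promoters in domains were PRCr. The Hoxd domain (chr2:74651800-74783599, 131.8 kb) had 12 Pol2-S5p regions over 34.1% of its length and 2 Pol2-S7p regions over 2.28%, at Hoxd8 and Hoxd9, its PRCa genes. The Hoxc domain (chr15:102916000-103046999, 131.0 kb) had 21.1% under Pol2-S5p and 2.29% under Pol2-S7p, with Hoxc4 and Hoxc13 PRCa. In the Hoxb domain (chr11:96248000-96382399, 134.4 kb), 31.0% was under Pol2-S5p and 14.3% under Pol2-S7p, Hoxb9 was PRCa, and Hoxb1 and Hoxb4 had H3K27me3 only. The Hoxa cluster was split. Hoxa10, Hoxa11 and Hoxa13 started in a domain of 103.6 kb (chr6:52232000-52335599) with 43.1% under Pol2-S5p and 1.74% under Pol2-S7p, while Hoxa2 to Hoxa7 lay in a region of 68.6 kb, below the limit.

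Smaller shares of the other developmental transcription factors were inside domains, again beside 6.46% of all coding genes. Most members of each of these lists carried H3K27me3, so this comparison partly reflects the mark itself. Among members with the mark, 20 of 73 further homeobox genes and 6 of 34 Forkhead genes started in a domain. Of 75 further homeobox genes, 20 started in a domain, 17 of them PRCr, including Alx4, Evx1, Evx2, the gut gene Cdx2, Gsc of the organizer, Pitx1 of the hindlimb and Barx1, and 3 PRCa, Emx1, Pou3f1 and Meis3. Of 9 Pax genes, Pax7 and Pax2 were PRCr in domains of 775.8 and 193.6 kb and Pax5, of B cells, PRCa in 194.0 kb. Of 29 proneural and myogenic bHLH genes, 6 were inside, with Neurog1, Twist2, Ascl5, Atoh8 and Bhlhe23 PRCr and Neurog3 PRCa. The T-box genes Tbx3 (PRCa) and Tbx5 (H3K27me3 only) shared 224.4 kb, and T, the mesoderm gene, was PRCr in 94.4 kb. Six2 (PRCa) and Six3 (PRCr) shared 87.4 kb. Forkhead genes had 6 of 44 inside, 4 of them PRCa (Foxo6, Foxn4, Foxa3 and Foxd1), and Sox genes had 4 of 19, with Sox10 PRCr and Sox7, Sox8 and Sox13 PRCa. The LIM homeobox list had 3 of 12 inside, the Dlx and Msx list 3 of 9, the Nkx list 2 of 14, the Gata list 1 of 6 and the Iroquois list 1 of 6. The intervals of the T-box, Forkhead, Sox, LIM homeobox, Nkx, Gata and Iroquois lists included the share of all coding genes.

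The lists of signalling and neural genes are read against 6.46% of all coding genes with a start in a domain, and 79.2% of counted coding promoters in domains with Pol2-S5p (PRCr or PRCa). Among 44 Wnt ligands and receptors, 11 were inside: Wnt3, Wnt7a, Wnt9b, Wnt11 and Sfrp5 were PRCr, and Wnt4, Wnt6, Wnt7b, Wnt10a, Rspo4 and Fzd10 were PRCa. Wnt7a had a domain of 302.8 kb and Wnt4 one of 235.6 kb. Of 71 axon guidance genes, 13 were inside, 11 of them PRCa, such as Unc5a, Unc5b, Ephb2 and Sema3f, and 2 PRCr, Epha8 and Ntng2. Potassium channel genes had 15 of 92 inside, with 11 PRCa (Kcnk3 in 290.8 kb and Kcnab2 in 269.8 kb among them), 3 PRCr (Kcnn3, Kcnk15 and Kcnj10) and Kcnj9 with H3K27me3 only. Transmitter receptor genes had 13 of 107 inside, 6 PRCr, 5 PRCa and 2 with H3K27me3 only. The BMP and TGF-beta list had 5 of 48 inside, with Bmp7, Acvr1b, Inha and Inhbb PRCa and Bmp1 PRCr, and the FGF list had 1 of 27 (3.70%). Notch and Hedgehog genes had 4 of 28 inside, neural adhesion genes 9 of 68, and sodium and calcium channel genes 7 of 40. The intervals of the BMP and TGF-beta, FGF, Notch and Hedgehog, and neural adhesion lists included the share of all coding genes. Most members of each of these signalling and neural lists carried H3K27me3, which the share of all coding genes does not allow for.

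Most keratin genes in domains lacked polymerase at the start, and blood genes were split. Of all coding genes, 6.46% started in a domain. Of counted coding promoters in domains, 20.6% had H3K27me3 only. Of 49 keratin genes, 19 started in 4 domains on chromosome 15, and 16 of these had H3K27me3 only. The exceptions were Krt8 and Krt18, the keratins of simple epithelia, both PRCa in 151.6 kb, and Krt7, PRCr in 114.2 kb. Of 227 blood and immune cell genes, 21 (9.25%, interval 5.82 to 13.8) were inside. Of these, 6 were PRCr, 6 were PRCa, 8 had H3K27me3 only and Cd40 had H3K27me3 and Pol2-S7p. Runx3, a T cell transcription factor, was PRCr in 233.6 kb, and the chemokine genes Ccl24 and Ccl26 had H3K27me3 only. Collagen genes had 5 of 44 inside (11.4%, interval 3.79 to 24.6), 3 of them PRCr. The intervals of the blood and collagen lists both include the share of all coding genes.

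Polycomb, imprinted and housekeeping genes were also found, beside 6.46% of all coding genes inside domains and 58.3% of counted coding promoters in domains that were PRCa. Of 32 genes for subunits of Polycomb complexes, 5 (15.6%, interval 5.27 to 32.8) started in a domain and all 5 were PRCa, among them Phc2 in 103.8 kb and Phf19 in 101.0 kb. Igf2 (PRCr) and H19 (PRCa), neighbours imprinted in opposite directions, shared 112.0 kb, and Cdkn1c (PRCa), Phlda2 (PRCr) and Slc22a18 (H3K27me3 only) shared 136.6 kb. The allele of each mark was not analysed here. Ribosomal protein genes had 4 of 83 (4.82%, near the share of all coding genes) inside, all PRCa, among them Rps15 and Rpl35, and the proteasome list had 0 of 39. Only Olfr70 and Olfr71 of 1093 olfactory receptor genes, and 0 of 327 vomeronasal receptor genes, started in a domain. Of 27 pluripotency genes, Tbx3 alone did (3.70%).

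Pol2-S5p regions inside domains touched a promoter window more often than Pol2-S5p regions as a whole. Of 1771 Pol2-S5p regions touching a domain, 1311 lay wholly inside one and 460 crossed an edge. Those inside had a median width of 3400 bp (quartiles 1400 and 13800 bp) and those crossing an edge 57.5 kb, against 2000 bp for all Pol2-S5p regions. A wider region offers more length to touch a window, so the shares that follow do not compare regions of equal width. Of those inside, 46.9% (interval 44.2 to 49.7) touched a promoter window, against 40.8% of all Pol2-S5p regions. Each gene had a single chosen start, so a region at another annotated start may not count. CpG-rich 200 bp windows had GC of at least 50% and an observed to expected CpG ratio of at least 0.6. They were touched by 66.1% of the regions inside and 60.7% of all. Neither kind of window was touched by 29.5% of the regions inside, a share not given for all Pol2-S5p regions. Inside domains 57.1% of Pol2-S5p regions (interval 54.3 to 59.8) touched a Pol2-S7p region, against 70.5% of all Pol2-S5p regions. In contrast, 94.8% of 1075 Pol2-S7p regions inside domains touched Pol2-S5p, against 91.0% of all Pol2-S7p regions. A total of 563 Pol2-S5p regions inside domains stood without Pol2-S7p, 68 of them over 10 kb, against 56 Pol2-S7p regions without Pol2-S5p, 0 of them over 10 kb.

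Polymerase cover was higher on CpG-rich windows than on other sequence. CpG-rich windows took 2.51% of domain length, against 3.92% in regions of 10 to 80 kb, 10.2% in regions under 10 kb and 0.619% outside. In domains 76.0% of them were under Pol2-S5p and 48.7% under Pol2-S7p, and 35.6% of the other windows in domains were under Pol2-S5p. Outside H3K27me3 regions, 53.8% of CpG-rich windows and 9.64% of other windows were under Pol2-S5p. GC content was 49.6% in domains, 48.6% in regions of 10 to 80 kb and 40.9% outside.

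Long stretches of domains had neither polymerase form. The longest such stretch in a domain had a median of 52.7 kb (quartiles 29.0 and 79.8 kb), and it reached 50 kb in 316 domains (53.2%) and 100 kb in 76 (12.8%). In the Wnt4 domain it was 213.4 of 235.6 kb, and in the domain of Alx4 and Cd82 it was 179.0 of 271.2 kb. A domain of 365.8 kb on chromosome 4 had a stretch of 216.2 kb beside Coro2a, Tbc1d2 and Trim14, all PRCa. These domains were named after their values were seen.

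Polymerase cover was described by distance from the edges of domains. Over 1188 edges, Pol2-S7p covered 31.3% of the first 1 kb inside, 19.7% from 5 to 10 kb and 16.7% from 20 to 40 kb inside, against 28.3% of the first 1 kb outside and 36.3% from 10 to 20 kb outside. Pol2-S5p covered 43.8% of the first 1 kb inside and 35.0% from 20 to 40 kb inside, against 38.2% of the first 1 kb outside and 43.5% from 10 to 20 kb outside. Right at the edge Pol2-S5p thus differed by more than Pol2-S7p, and farther from it Pol2-S7p differed by more. Both forms were lower from 20 to 40 kb inside domains than from 10 to 20 kb outside, and Pol2-S5p lay between 35.0% and 43.8% in all of these distance classes on both sides. Regions of 10 to 80 kb, with 7860 edges, had 26.7% of the first 1 kb inside under Pol2-S7p, 15.4% from 10 to 20 kb inside and 25.8% from 10 to 20 kb outside. Their values for Pol2-S5p were 37.4%, 32.1% and 31.4% in the same order. A Pol2-S5p region crossed 39.2% of domain edges (interval 36.4 to 42.1), against 30.9% of edges of regions of 10 to 80 kb. For Pol2-S7p these shares were 29.1% (interval 26.6 to 31.8) and 22.8%.

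Gene starts gathered just inside the edges. The first 1 kb inside had 4.21 coding starts per 100 kb and the next 1 kb 5.81, against 1.66 from 20 to 40 kb inside and 0.926 in the first 1 kb outside. CpG-rich windows took 5.99% of the first 1 kb inside and 1.31% of the first 1 kb outside. Edges of regions of 10 to 80 kb had 5.61 and 1.44 coding starts per 100 kb in the first 1 kb inside and outside. An Active start lay within 10 kb of 8.33% of domain edges and 7.38% of edges of regions of 10 to 80 kb, and another H3K27me3 region within 10 kb of 28.1% and 22.5%.

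**Figure D4:**
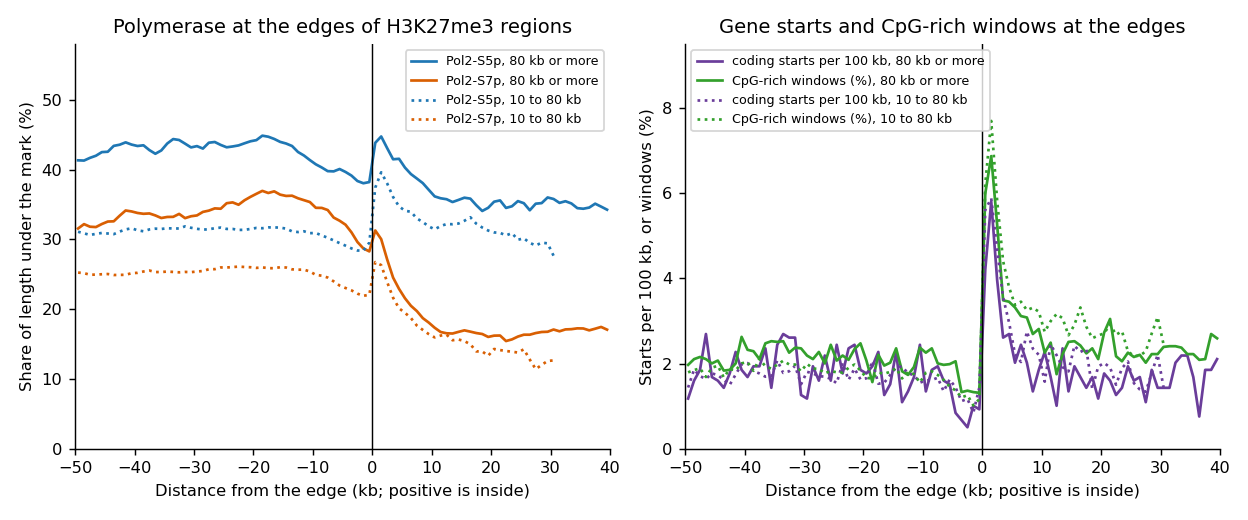
Left, share of length (%) under Pol2-S5p (blue) and Pol2-S7p (orange) by distance from the edge in kb, positive inside, for domains (solid) and regions of 10 to 80 kb (dotted). Right, coding starts per 100 kb (purple) and CpG-rich windows (%, green). Pol2-S7p at domain edges is 31.3% in the first 1 kb inside and 16.7% from 20 to 40 kb inside, and coding starts are at 4.21 per 100 kb in the first 1 kb inside and 5.81 in the next.

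The domains were unevenly spread over chromosomes. Chromosome 5 had 78 (5.14 per 10 Mb), chromosome 4 had 76 (4.86), chromosome 2 had 80 (4.39) and chromosome 15 had 39 (3.748), against 7 on chromosome 9 (0.562), 16 on chromosome 11 (1.31), 10 on chromosome X (0.585) and 1 on chromosome Y. Chromosomes 2, 4 and 5 together held 39.4% of domains, with 17.99% of the length, 20.2% of coding genes and 20.8% of the H3K27me3 regions of 10 to 80 kb. Narrower regions did not follow this order. Regions of 10 to 80 kb numbered 17.8 per 10 Mb on chromosome 5 and 24.4 on chromosome 11. Of these 2 chromosomes as a whole, 14.7% each was under Pol2-S5p, and 12.9% of chromosome 5 and 10.4% of chromosome 11 were under Pol2-S7p. Within chromosomes, 25 of 286 windows of 10 Mb held 302 domains and 142 windows held none, and the highest count was 21, at 110 to 120 Mb of chromosome 5. Read depth along the chromosomes was not given by the lists, and its part in this spread was not tested.

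**Figure D5:**
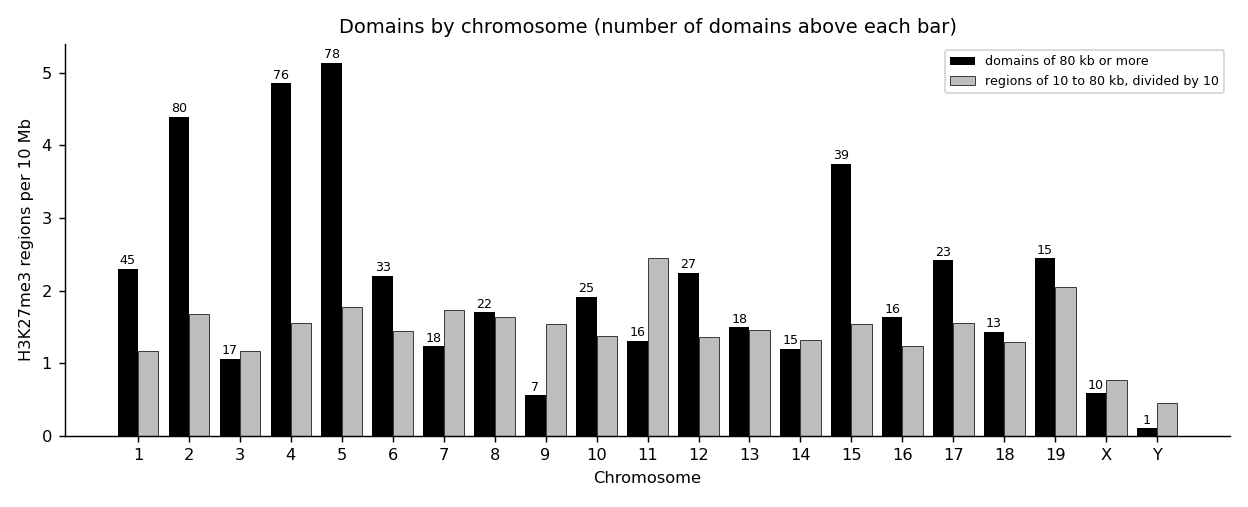
H3K27me3 regions per 10 Mb of each chromosome, with domains of 80 kb or more in black (number of domains above each bar) and regions of 10 to 80 kb, divided by 10, in grey. Domains reach 5.14, 4.86 and 4.39 per 10 Mb on chromosomes 5, 4 and 2, against 0.562 on chromosome 9 and 0.585 on chromosome X.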

How the data were processed

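ChIP-seq of H3K27me3, Pol2-S5p and Pol2-S7p gave 1 library each. The authors mapped 75 bp single-end reads with Bowtie2 2.3.4.3 (also named in the submitters' processing notes) to mm10 with strain variants masked, and called regions per library with BCP, a Bayesian change-point method, at default settings. Each deposited region has a position, a width in bp and a score, whose unit is not given in the sources used here. The deposited width is an other kind of value than the score. It is a multiple of 200 bp and equals the distance from start to end. The lists hold no read counts, so the depth behind a region is unknown.

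Domains were regions at least 80 kb wide. Starts, counted from 0 in the lists, are printed counting from 1. Genes came from GENCODE release M21, with 21938 coding and 13374 lncRNA genes on 21 chromosomes, and sequence from the RefSeq copy of the mm10 reference. Overlap meant at least 1 bp. The promoter window was 2 kb, centred on the start with the longest Pol2-S5p cover, then Pol2-S7p cover, the longest transcript or the first identifier. No read threshold could be set. Genes with overlapping windows (6750) were left out of the state counts, which leaves 28562, but kept in gene lists. Cover is the share of length under a mark. CpG-rich windows are 200 bp. Python 3.11.15, NumPy 2.4.6, SciPy 1.17.1 and Matplotlib 3.10.9 were used, and the functions were tested on simulated data.

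With 1 library per mark no group test was made, and counts carry exact Clopper-Pearson intervals at 95%. The members and the 36 gene lists were chosen with earlier results of these data known. Genes were named by rule: coding starts in the 15 widest domains, in the widest domains of each polymerase class and with few or many starts or the highest cover, those at the 80 kb limit, and up to 6 members per state of each list. Some that the rule gives are not printed, and the domains of broad Pol2-S5p with little Pol2-S7p were chosen after their values were seen. Alternatives were another width limit, merged regions, stricter scores, a 1 kb window, another start, overlap by 50% and whole genes.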

Additional observations from a re-analysis of the deposited data

How the results depend on the processing

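Of 75 comparisons under 11 alternative settings, 39 moved by less than their 95% interval or, for counts, stayed within 1.5 times, and 36 moved by more. For length cover the interval took 200 bp windows as independent and was very narrow (36.4 to 36.7% for Pol2-S5p). Every cover comparison therefore counts as moved, even a small one. With a limit of 60 kb there were 911 domains, 95.2% touched by Pol2-S5p and 84.4% by Pol2-S7p, with 35.7% and 17.9% of length covered, and 21.2% had no coding start. With 100 kb, cover was 37.6% and 19.4% and the share without a coding start 14.2%. Merging regions over gaps up to 2 kb gave cover of 36.2% and 18.5%. Requiring a score above the list median of 8.23 left 176 domains with 632 coding starts, of which 98.9% and 92.0% were touched by Pol2-S5p and Pol2-S7p, with 48.2% and 26.0% of length covered, 64.2% of coding promoters PRCa and 12.5% H3K27me3 only, 55.7% of inner Pol2-S5p regions at promoters and 5.11% of domains without a coding start. The same restriction on the polymerase lists had the largest effect on promoter states: 61.4% and 53.9% of domains touched, 9.75% and 5.72% of length covered, 17.2% PRCr, 23.04% PRCa, 52.7% H3K27me3 only, and 56.4% of inner Pol2-S5p regions at promoters. It removes polymerase regions by construction, and the order of the states turned, with H3K27me3 only in place of PRCa as the most frequent. Requiring 50% of a polymerase region inside the domain gave 93.6% and 83.5% touched. With the first annotated start, 54.5% of coding promoters were PRCa and 25.2% H3K27me3 only. With whole genes inside, 31.5% of domains had none. Without the domains with 10 or more coding starts, an alternative chosen after seeing the data, cover was 35.5% and 17.6%. No paired analysis was possible because each mark had 1 library. Library depth and replicate error are unknown, so no value here separates a difference between domains from one between libraries.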
